A study of Arabidopsis thaliana with 8 samples.

Results

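The phosphate starvation genes described here are 10 Arabidopsis thaliana genes picked by name: the non-coding RNAs AT4 and IPS1, the SPX proteins SPX1, SPX2 and SPX3, the phosphate transporter PHT1;4, the ubiquitin-conjugating enzyme PHO2, and the lipid enzymes SQD2, MGD2 and MGD3. All 10 were among the 37336 genes of the count table. Of these, 8 passed the filter on low counts and were tested with the other genes, 20346 in all; IPS1, with 31 counts over all 24 libraries, and SPX3, with 51, did not pass. RNA from above-ground tissue of 6-week-old plants, grown at 21 °C with 8 h of light and 16 h of darkness, was sequenced from 3 biological replicates of each of 8 genotypes. The genotypes were the triple mutant pat1-1path1-4path2-1summ2-8, the double mutants pat1-1path1-4summ2-8, pat1-1path2-1summ2-8 and path1-4path2-1summ2-8, the single mutants pat1-1summ2-8, path1-4summ2-8 and path2-1summ2-8, and the control summ2-8. Every genotype, the control included, thus carried summ2-8, a mutation of the immune receptor SUMM2, and no plant with intact SUMM2 is compared here. PAT1, PATH1 and PATH2 are related proteins that activate the removal of the cap from messenger RNA. The mutants are called below by their pat1-1, path1-4 and path2-1 alleles alone. Pots of either of 2 sizes were used, the labels do not tie a size to a genotype, and they name no difference in phosphate supply.

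Plants short of phosphate switch on a set of genes through the transcription factor PHR1, which SPX proteins hold back when phosphate is plentiful. The microRNA miR399 accumulates in starved shoots, moves to the root and directs cleavage of the RNA of PHO2, an enzyme that marks phosphate carriers for breakdown. AT4 and IPS1 carry a miR399 site with a bulge that prevents cleavage, so that they hold the microRNA away from PHO2, which is known as target mimicry. MGD2, MGD3 and SQD2 make membrane lipids free of phosphorus, galactolipids and a sulfolipid, that replace phospholipids.

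The miR399 sites of PHO2 and of the mimics are shown as background. AT4 and PHO2 were called in the same genotype, in opposite directions, and a part of miR399 in those changes was not tested. The mature miR399-3p sequences (RefSeq, TAIR10.1) share the seed, bases 2 to 8, in capitals, and miR399c-5p, which has another seed, is not shown.
miR399a-3p: uGCCAAAGgagauuugcccug
miR399b-3p and miR399c-3p: uGCCAAAGgagaguugcccug
miR399d-3p: uGCCAAAGgagauuugccccg
miR399e-3p: uGCCAAAGgagauuugccucg
miR399f-3p: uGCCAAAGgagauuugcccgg
The PHO2 transcript holds 5 sites of 21 bases in its annotated 5′ UTR that pair with at least 1 of these microRNAs without a gap, at no more than 4 mismatches and G:U pairs together. All 5 lie on the minus strand of chromosome 2 (TAIR10.1), and capitals mark the bases opposite the seed. The first and the last in the transcript are shown.
PHO2 site at chr2:14282106-14282126: tagggcaaatcttCTTTGGCa
PHO2 site at chr2:14281770-14281790: tagagcaaatctcCTTTGGCa
AT4 and IPS1 hold no ungapped site, and 1 site each that pairs once 3 bases opposite the gap between microRNA bases 10 and 11 are left out. Those bases are in capitals, and both genes lie on the plus strand.
AT4 site at chr5:895149-895172: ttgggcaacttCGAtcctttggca
IPS1 site at chr3:3051224-3051247: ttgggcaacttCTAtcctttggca
The sites are identical at 23 of 24 bases. RefSeq annotates short coding sequences in AT4 and IPS1 that overlap the sites. The other 7 members held neither kind of site. Mature miR399 and its precursors were not analysed here.

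Libraries held between 14187145 and 39180748 counts, and levels below are in CPM, counts scaled to library size with TMM factors, and in TPM, which is also scaled to gene length, where genes are compared with each other. Transcripts of the mutated genes remained in the mutants. PAT1 was at 63.5% to 90.3% of the control in the 4 genotypes with pat1-1, PATH1 at 78% to 93.6% in the 4 with path1-4, and PATH2 at 105% to 118% in the 4 with path2-1. These levels over whole genes do not check the alleles. Leaf markers were abundant in all libraries (6 genes, summed CPM 30800 to 53800). Of 16 root markers, RHD6 was at 0 and 7, RHD6 among them, had 10 or fewer counts over all libraries, while PYK10, NAI2 and SCR had counts in all 24 libraries, with up to 100 CPM for PYK10 and 33.5 to 74.3 CPM for SCR. Replicate 1 of the triple mutant stood apart for the members: it was the highest of the 3 triple mutant libraries for all 10. Over all genes tested, 227 (1.12%) lay more than 2-fold above both other triple mutant libraries there and 256 (1.26%) more than 2-fold below. Control replicate 1 had 326 genes (1.6%) more than 2-fold above both other control libraries and 103 (0.506%) below, so such a deviation was not particular to the triple mutant. The members' calls in the triple mutant against the control are given with and without triple mutant replicate 1.

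The members did not move as 1 group. In the pat1-1path2-1 double mutant AT4 was raised 3.88-fold and PHO2 was lowered to 65.2% of the control, while the other 6 tested members did not pass the test. In the triple mutant and in pat1-1path1-4 the lipid enzymes SQD2 and MGD3 were lower, MGD3 at 17.2% and 15.9% of the control. IPS1 was read in 8 of the 12 libraries with pat1-1 and in 0 of the 12 without it. The path1-4 and path2-1 single mutants had no member past the test. In bulk tissue, fewer cells of a type and less RNA per cell cannot be told apart.

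A member was called where edgeR's quasi-likelihood test, adjusted by Benjamini-Hochberg over all genes tested, gave an adjusted p below 0.05. Groups whose libraries do not overlap are described gene by gene. The share of all genes without overlap is not given here, so a lack of overlap does not stand in for a call. Against the control, the triple mutant had 4 of 8 members called, 1 higher (SPX1) and 3 lower (SQD2, MGD2 and MGD3), beside 45.4% of all genes (22.8% higher and 22.6% lower). The pat1-1path1-4 mutant had 2 called, SQD2 and MGD3, both lower, beside 31.2% of all genes (15.8% higher and 15.4% lower). The pat1-1path2-1 mutant had AT4 higher and PHO2 lower, beside 32.6% of all genes (15.9% and 16.7%). The path1-4path2-1 mutant had 0 called, beside 19.5% (9.18% higher and 10.3% lower), with 0 by DESeq2 and 1, PHO2, at an unadjusted p below 0.05. The pat1-1 mutant had SQD2 lower, beside 22.9% (12% higher and 10.9% lower). The path1-4 and path2-1 mutants had 0 called by edgeR and by DESeq2, beside 0.177% and 0.0197% of all genes, and of the unadjusted p-values only that of AT4 in path2-1 was below 0.05. Without replicate 1 of the triple mutant, that mutant had 3 members called, SQD2, MGD2 and MGD3, all lower, while SPX1 joined the higher calls in pat1-1 and pat1-1path2-1. The share of all genes called in that fit is not given here. Over the fits that each left out 1 library, 7931 to 9587 genes were called in the triple mutant. In the fit of all libraries the members' share called against the control was thus near or below that of all genes. The median log2 fold change over the 8 members lay between -0.20 and 0.11 in these 7 comparisons, and that over all genes between -0.01 and 0.01.

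**Figure D1:**
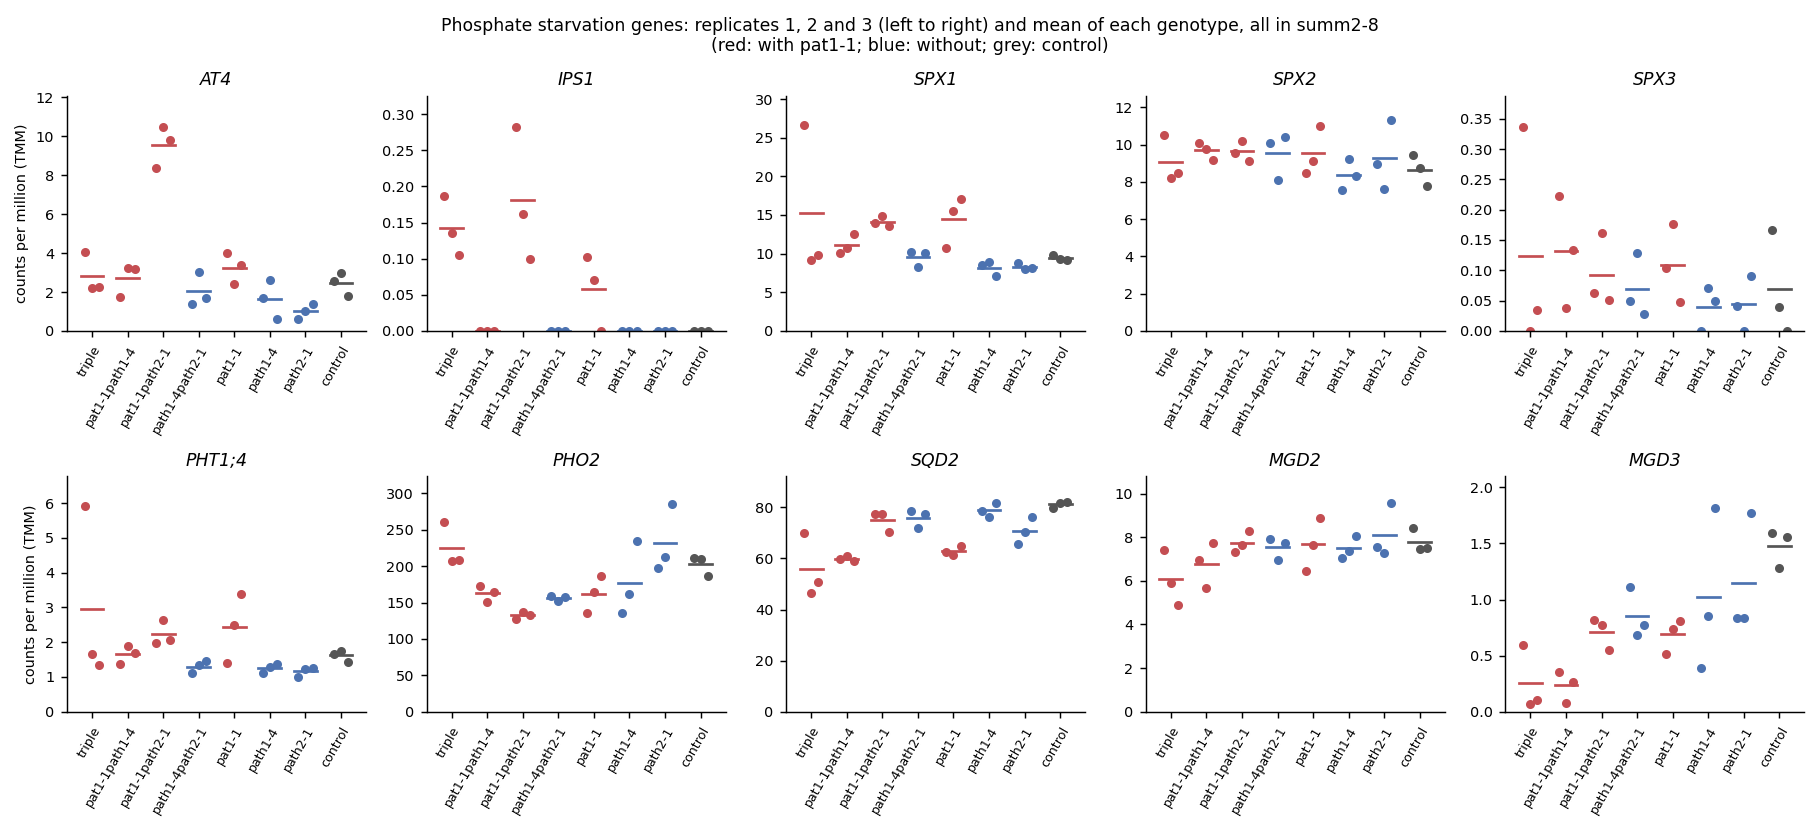
CPM of the 10 members in each library (points, replicates 1 to 3 from left to right) and the mean of each genotype (bars), with a vertical axis for each gene that starts at 0. AT4 stands out in pat1-1path2-1 at 8.39 to 10.5 CPM, IPS1 has counts only in genotypes that carry pat1-1, and replicate 1 of the triple mutant is the high point for SPX1 and PHT1;4.

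AT4 (AT5G03545, a single exon at chr5:894582-895517 of TAIR10.1, plus strand) had the widest spread among the 8 tested members, 9.57-fold between the highest and the lowest genotype mean. It had 8.39, 10.5 and 9.83 CPM in pat1-1path2-1, against 2.59, 2.99 and 1.80 CPM in the control. The log2 fold change was 1.96 ± 0.34 (SE; edgeR adjusted p = 0.00018). Every pat1-1path2-1 library lay above every control library, and above every other library of the series. AT4 had 3.98, 2.40 and 3.38 CPM in pat1-1 and 0.628, 1.02 and 1.36 CPM in path2-1. The pat1-1 libraries overlapped the control (log2 fold change 0.39 ± 0.36, edgeR adjusted p = 0.465). The path2-1 libraries all lay below it, at -1.29 ± 0.41, and missed the threshold after adjustment (edgeR adjusted p = 0.206). In the triple mutant AT4 was at 4.04, 2.20 and 2.28 CPM, which overlaps the control. Against pat1-1path2-1 the triple mutant was lower by 1.75 ± 0.33 on the log2 scale (-1.75, edgeR adjusted p = 0.000307), and the groups did not overlap. Below pat1-1path2-1 at 9.57 CPM, the order of means was pat1-1 (3.25), the triple mutant (2.84), pat1-1path1-4 (2.73), the control (2.46), path1-4path2-1 (2.06), path1-4 (1.66) and path2-1 (1.00). Neighbours in this order overlapped, other than the first step.

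The joint effect of pat1-1 and path2-1 was tested as an interaction: the change that path2-1 brought to pat1-1 plants, less the change it brought to the control. All 4 genotypes in it had intact PATH1. Among them AT4 was higher with path2-1 in pat1-1 plants and lower with it in plants with intact PAT1. The interaction was 2.86 ± 0.52 on the log2 scale (edgeR adjusted p = 0.00139). With path1-4 present, mean AT4 with and without path2-1 was 2.84 and 2.73 CPM in pat1-1 plants. In plants with intact PAT1 it was 2.06 and 1.66 CPM. The interaction of pat1-1 with path2-1 had 2 of the 8 members called, AT4 and SQD2, both positive, beside 14.7% of all genes (6.97% positive and 7.77% negative). The interactions of pat1-1 with path1-4 and of path1-4 with path2-1 had 0 members called, beside 0.0442% and 8.23% of all genes. In the second of these AT4 stood at 1.61 ± 0.57 (edgeR adjusted p = 0.0838, and 0.0361 with DESeq2). The triple mutant against the sum of the 3 single mutants also had 0 called, beside 6.61%, with AT4 at 1.73 ± 0.76 (edgeR adjusted p = 0.178). At an unadjusted p below 0.05 these 3 comparisons had 0, 1 and 1 members, AT4 in both cases, and DESeq2 called 0, 1 and 0. The median log2 value over the 8 members was 0.24 for the interaction of pat1-1 with path2-1 and lay between -0.07 and 0.26 for the other 3, against -0.03 to -0.01 over all genes.

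**Figure D2:**
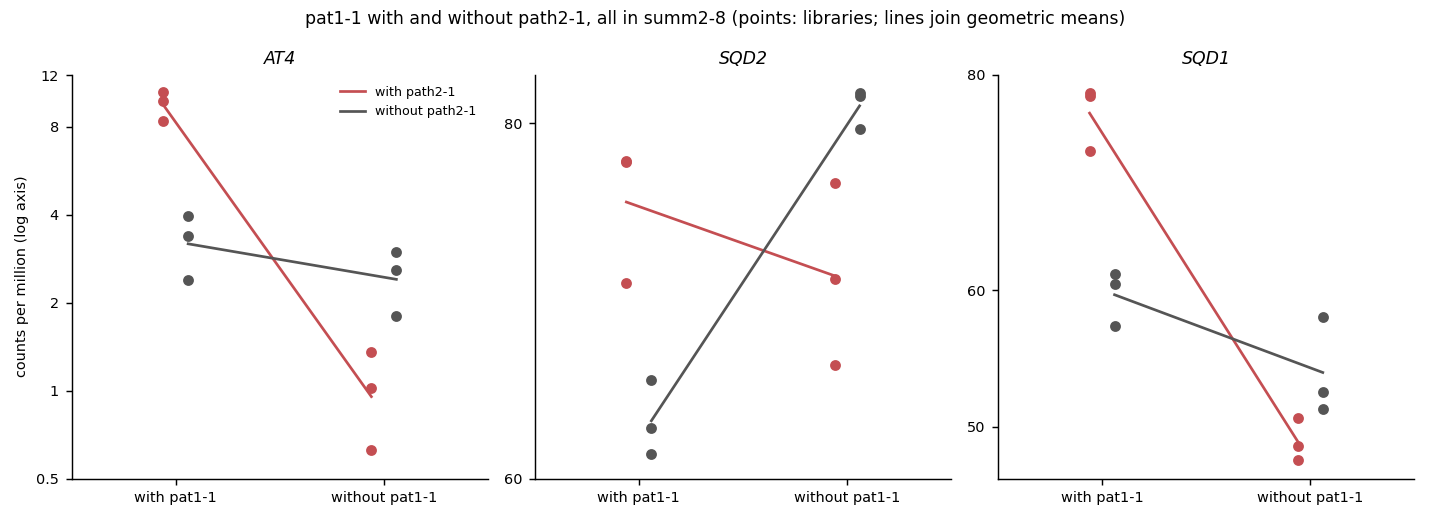
CPM on a log axis of AT4, SQD2 and SQD1 with and without pat1-1, for plants with path2-1 (red) and without it (grey), where points are libraries and lines join geometric means. The 3 libraries with both alleles hold the highest AT4 and SQD1 values, 8.39 to 10.5 and 72.3 to 78.1 CPM, and the lines cross in each panel. SQD1 is among the 3 genes most like AT4 over the same genotype means.

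IPS1 (AT3G09922, a single exon at chr3:3050989-3051530, plus strand), the other mimic, was at the edge of detection. Its counts were 5, 4 and 3 in the triple mutant, 9, 4 and 2 in pat1-1path2-1, 2, 2 and 0 in pat1-1, and 0 in every library of the other 5 genotypes. Every genotype with IPS1 counts therefore carried pat1-1, while pat1-1path1-4, which carries it too, had 0. A count of 0 over the 3 control libraries allows up to 3 counts, or 0.0398 CPM. Against that limit IPS1, at its observed level, was at least 4.92-fold higher in pat1-1path2-1 and at least 3.55-fold higher in the triple mutant, while the 4 counts of pat1-1 are too few to set apart from it. The bounds allow for counting error in the control and not in the mutants. With no filter on low counts, edgeR gave adjusted p = 0.00836 for pat1-1path2-1, 0.0123 for the triple mutant and 0.155 for pat1-1. IPS1 thus had its highest level in the genotype in which AT4 was highest, but its libraries there overlapped those of the triple mutant, and the triple mutant did not share the AT4 level.

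PHO2 (AT2G33770, 9 exons at chr2:14277558-14283113, minus strand), the target of miR399, was the most abundant member per transcript length, at 73.2 ± 6.7 TPM in the control (SD, n = 3). Control means per length were 53.8 TPM for SQD2, 11.8 for SPX1, 6.16 for MGD2, 3.97 for AT4, 1.22 for PHT1;4, 1.16 for MGD3, 0.116 for SPX3 and 0 for IPS1, with SPX2 between SPX1 and MGD2. PHO2 had 127, 137 and 133 CPM in pat1-1path2-1, against 211, 210 and 186 CPM in the control. The log2 fold change was -0.62 ± 0.16 (SE; edgeR adjusted p = 0.00524). All pat1-1path2-1 libraries lay below all control libraries, so the genotype with the most AT4 had the least PHO2. PHO2 in the path1-4path2-1 mutant was at 159, 152 and 158 CPM, in pat1-1path1-4 at 173, 151 and 165, and in pat1-1 at 136, 164 and 186 CPM. The libraries of these 3 genotypes all lay below those of the control, although the highest pat1-1 and the lowest control library both round to 186 CPM, and none of the 3 passed (log2 fold changes -0.38, -0.32 and -0.32; edgeR adjusted p = 0.0997, 0.134 and 0.145). The triple mutant stood apart from the double mutants. It had 260, 207 and 208 CPM, which overlaps the control (0.15 ± 0.16, edgeR adjusted p = 0.451), and each of its libraries was above every library of the double mutants. Its log2 fold change was 0.77 ± 0.16 against pat1-1path2-1 (edgeR adjusted p = 0.000737), 0.53 ± 0.16 against path1-4path2-1 (0.00855) and 0.47 ± 0.16 against pat1-1path1-4 (0.0459). Without replicate 1 of the triple mutant these became 0.65 (edgeR adjusted p = 0.00579), 0.41 (0.0523) and 0.35 (0.189). The call against pat1-1path1-4 was narrow: it held in 8 of 24 fits that each left out 1 library, and it was lost with length and GC trends removed (edgeR adjusted p = 0.0506). The interaction of pat1-1 with path2-1 was -0.49 ± 0.22 for PHO2 and did not pass (edgeR adjusted p = 0.145). Over the 8 genotype means of log2 CPM, PHO2 and AT4 had a Pearson r of -0.67, a description over points that share libraries with both genes.

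The SPX proteins sense phosphate status and bind PHR1. SPX1 (AT5G20150, 3 exons at chr5:6802282-6803655, plus strand) was at 26.7, 9.17 and 9.83 CPM in the triple mutant, against 9.82, 9.28 and 9.13 CPM in the control. Replicate 1 was 2.81 times the mean of the others, while replicates 2 and 3 lay within or just beside the control range. The call in the triple mutant (0.69 ± 0.27, edgeR adjusted p = 0.0384) rested on that library: without it the log2 fold change was 0.01 (edgeR adjusted p = 0.948). SPX1 was at 13.9, 14.9 and 13.6 CPM in pat1-1path2-1 and at 10.7, 15.5 and 17.1 CPM in pat1-1. Both genotypes lay wholly above the control, with log2 fold changes of 0.59 ± 0.27 and 0.62 ± 0.27. They missed the threshold in the fit of all libraries (edgeR adjusted p = 0.0983 and 0.099) and passed it without replicate 1 of the triple mutant (0.00187 and 0.0022). SPX1 averaged 11.1 ± 1.24 CPM in pat1-1path1-4 and 8.19 to 9.53 CPM in the 3 genotypes with a path allele and intact PAT1, against 9.41 ± 0.36 CPM in the control (SD, n = 3 each).

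SPX2 (AT2G26660, 3 exons at chr2:11338752-11340950, plus strand) had the narrowest spread of the tested members. Its genotype means lay between 8.36 CPM in path1-4 and 9.69 CPM in pat1-1path1-4, against 8.66 ± 0.82 CPM in the control (SD, n = 3), a 1.16-fold range over all 8. All neighbours in this order overlapped, and SPX2 was called in none of the 14 comparisons. SPX3 (AT2G45130, 3 exons at chr2:18606410-18607853, plus strand) had between 0 and 9 counts per library, 10 in all in the triple mutant, 10 in pat1-1path1-4 and 5 in the control. Of its 10 counts in the triple mutant 9 fell in replicate 1. The ratio to the control was 1.78 for the triple mutant with a 95% counting interval of 0.553 to 6.62, so a change was not detectable at this depth.

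PHT1;4 (AT2G38940, 2 exons at chr2:16257157-16260253, plus strand) is a high-affinity phosphate transporter of the plasma membrane. It was at 5.91, 1.66 and 1.33 CPM in the triple mutant, against 1.67, 1.75 and 1.44 CPM in the control. Replicate 1 again stood alone, and the other libraries of the triple mutant lay within or below the control range. The log2 fold change was 0.86 ± 0.39 (SE; edgeR adjusted p = 0.0748), and -0.11 without replicate 1 (0.759). The call of PHT1;4 in the triple mutant against path1-4path2-1 (1.18 ± 0.38, edgeR adjusted p = 0.0148) was likewise lost without it (0.21, 0.532). In pat1-1path2-1 the levels were 1.97, 2.64 and 2.06 CPM, all above the control, and the pat1-1 mean was 2.43 ± 0.994 CPM (SD, n = 3); neither passed (edgeR adjusted p = 0.406 and 0.299). Over genotype means the r of PHT1;4 with SPX1 was 0.96, a value that includes the library just named.

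**Figure D3:**
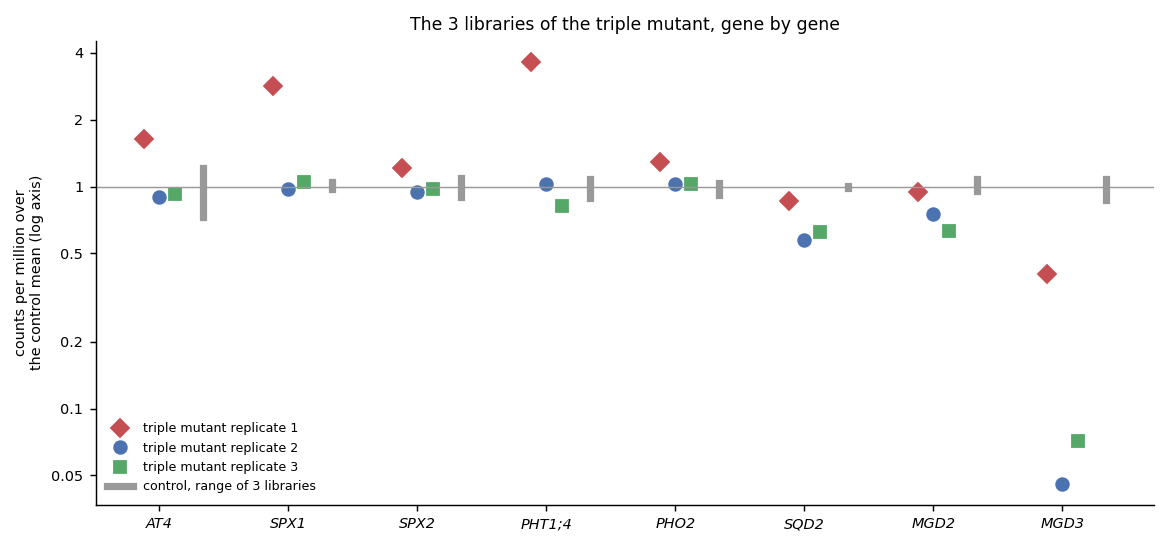
CPM of the 8 tested members in each library of the triple mutant, divided by the control mean, on a log axis, with grey bars for the range of the 3 control libraries. Replicate 1 (red diamonds) is the highest of the 3 for every gene, from 1.25 times the mean of the others for SPX2 to 6.91 times for MGD3.

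SQD2 (AT5G01220, 12 exons at chr5:86543-90117, minus strand), which carries out the last step of sulfolipid synthesis, fell in 3 of the 4 genotypes with pat1-1. It had 70.0, 46.6 and 50.8 CPM in the triple mutant, 59.8, 60.8 and 59.1 CPM in pat1-1path1-4 and 62.5, 61.2 and 65.0 CPM in pat1-1, against 79.6, 81.8 and 82.0 CPM in the control. No library of these 3 genotypes reached the control range, and replicates within pat1-1path1-4, pat1-1 and the control were tight. The log2 fold changes were -0.54 ± 0.10 in the triple mutant (edgeR adjusted p = 0.000133), -0.44 ± 0.10 in pat1-1path1-4 (0.00205) and -0.37 ± 0.10 in pat1-1 (0.0106). Without replicate 1, the triple mutant stood at -0.74 (edgeR adjusted p = 9.34e-08). The path2-1 single mutant, at 65.8, 70.5 and 76.2 CPM, also lay wholly below the control and did not pass (-0.20 ± 0.10, edgeR adjusted p = 0.373). SQD2 in pat1-1path2-1 was at 77.6, 77.5 and 70.3 CPM, below the control in every library but not past the test (-0.11 ± 0.10, edgeR adjusted p = 0.411). The interaction of pat1-1 with path2-1 was 0.45 ± 0.14 (edgeR adjusted p = 0.0318), and it passed in 17 of 24 fits that each left out 1 library. The triple mutant was lower than pat1-1path2-1 (log2 fold change -0.43 ± 0.10, edgeR adjusted p = 0.00172) and than path1-4path2-1 (-0.45 ± 0.10, 0.000722), and did not pass against pat1-1path1-4 (-0.10 ± 0.10, 0.53).

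MGD3 (AT2G11810, 7 exons at chr2:4743162-4746813, plus strand), a galactolipid synthase of the outer plastid envelope, had the largest fold changes and the fewest counts of the 3 lipid enzymes. It had 16, 2 and 3 counts in the triple mutant and 8, 2 and 8 in pat1-1path1-4, against 38, 33 and 40 in the control. In CPM these were 0.598, 0.0677 and 0.105 in the triple mutant and 0.357, 0.077 and 0.267 in pat1-1path1-4, against 1.59, 1.28 and 1.56 in the control. The groups did not overlap, and the log2 fold changes were -2.54 ± 0.56 (edgeR adjusted p = 0.000879) and -2.65 ± 0.57 (0.00161). Both passed whichever library was left out, and without replicate 1 the triple mutant stood at -4.02. MGD3 was also below every control library in pat1-1path2-1 (mean 0.712 CPM), pat1-1 (0.689) and path1-4path2-1 (0.855), at log2 fold changes of -1.02, -1.08 and -0.76 that did not pass (edgeR adjusted p = 0.109, 0.118 and 0.264). The path1-4 and path2-1 single mutants averaged 1.02 ± 0.73 and 1.15 ± 0.54 CPM (SD, n = 3 each) and overlapped the control. Their spread, with single libraries at 1.82 and 1.77 CPM, was wider than that of the control.

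MGD2 (AT5G20410, 6 exons at chr5:6896463-6898783, plus strand), a related galactolipid synthase, was at 7.40, 5.89 and 4.91 CPM in the triple mutant, against 8.44, 7.46 and 7.49 CPM in the control. The highest triple mutant library lay just below the lowest control library, and the call was narrow (-0.36 ± 0.15, edgeR adjusted p = 0.0474): it was lost in 14 of 24 fits that each left out 1 library. Without replicate 1 of the triple mutant it was -0.53 (edgeR adjusted p = 0.00776). In no other comparison was MGD2 called. Over genotype means SQD2, MGD2 and MGD3 had r between 0.79 and 0.91 with each other.

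**Figure D4:**
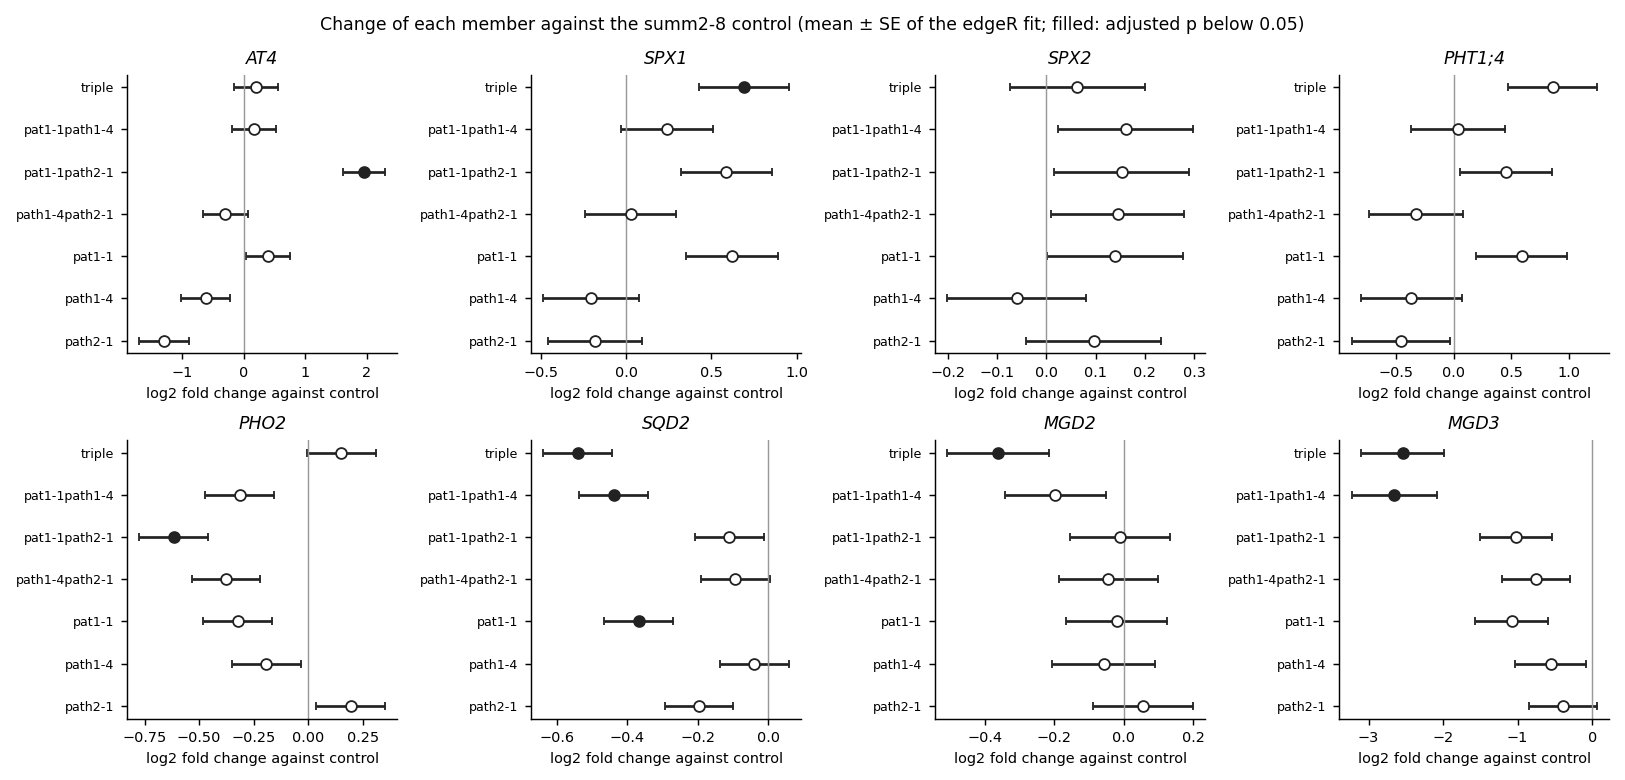
Log2 fold change (± SE, edgeR) of the 8 tested members in each mutant against the control, with filled points where the adjusted p is below 0.05 and a horizontal scale for each gene. The filled points are AT4 and PHO2 in pat1-1path2-1, SQD2 in 3 genotypes with pat1-1, MGD3 in the triple mutant and pat1-1path1-4, and SPX1 and MGD2 in the triple mutant.

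The triple mutant was also set against each double mutant. Against pat1-1path1-4, which differs by path2-1, 1 of 8 members was called, PHO2, higher, beside 16.8% of all genes (8.13% higher and 8.71% lower). Against pat1-1path2-1, which differs by path1-4, 3 were called, PHO2 higher and AT4 and SQD2 lower, beside 35.8% (18.1% and 17.7%). Against path1-4path2-1, which differs by pat1-1, 5 were called, SPX1, PHT1;4 and PHO2 higher and SQD2 and MGD3 lower, beside 49.1% (24.8% and 24.3%). The median log2 fold changes over the 8 members were 0.08, -0.22 and 0.21, and those over all genes lay between 0.00 and 0.01. Without replicate 1 of the triple mutant the 3 higher calls in the last comparison were lost, and SQD2 (-0.64), MGD2 (-0.48) and MGD3 (-3.27) were lower, at edgeR adjusted p = 4.05e-07, 0.0116 and 0.000714. In the same fit SPX1 was lower in the triple mutant than in pat1-1path2-1 (-0.57, edgeR adjusted p = 0.00518), and 6 members were called in that comparison, PHO2 higher and AT4, SPX1, SQD2, MGD2 and MGD3 lower. Against pat1-1path1-4, SQD2 was then the 1 member called (-0.30, edgeR adjusted p = 0.00685). The share of all genes called in this fit is not given here. Over the fits that each left out 1 library, 5796 to 7687 genes were called against pat1-1path2-1 and 2454 to 3758 against pat1-1path1-4.

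PHR1 binds the motif GNATATNC, which reads the same on both strands. In windows from 250 bases before to 50 after the annotated start of each gene (RefSeq, TAIR10.1), 5 of 10 members held it, beside 24 of the 55 other phosphate genes described in the next paragraph (43.6%) and 6.1% of all 37049 promoters. Counted from the start, the match began at -26 in AT4, at -7 in PHT1;4, at 23 in SPX1, at -14 and 38 in MGD2 and at -213 and -90 in SPX3. The windows of 40 bases that lie wholly upstream of the start are printed with the motif in capitals.
AT4 at chr5:894540-894579, plus strand: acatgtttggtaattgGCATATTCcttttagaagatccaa
SPX3 at chr2:18606181-18606220, plus strand: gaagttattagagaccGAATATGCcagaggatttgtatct
SPX3 at chr2:18606304-18606343, plus strand: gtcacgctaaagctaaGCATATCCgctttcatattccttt
IPS1, SPX2, PHO2, SQD2 and MGD3 had no match in this window. The members with a match did not all move alike in pat1-1path2-1. AT4 rose (log2 fold change 1.96), and MGD2 was at -0.01. SPX1 (0.59) and PHT1;4 (0.45) were not called there (edgeR adjusted p = 0.0983 and 0.406). Over genotype means AT4 had an r of 0.81 with SPX1, 0.77 with PHT1;4 and -0.11 with MGD2. The narrower motif GNATATGC, on either strand, was in 2 of 10 members and 1.89% of all promoters.

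The wider phosphate pathway was read from a list of 72 genes, of which 55 carried the given name and were in the table and 44 were tested. In the triple mutant 15 were higher and 9 lower, 54.5% beside 45.4% of all genes. In pat1-1path1-4 the counts were 9 higher and 5 lower (31.8%, beside 31.2%), in pat1-1path2-1 10 and 7 (38.6%, beside 32.6%), in path1-4path2-1 8 and 3 (25%, beside 19.5%) and in pat1-1 9 and 5 (31.8%, beside 22.9%). In path1-4 and path2-1 edgeR called 0, DESeq2 1 in each, and 4 and 5 had an unadjusted p below 0.05. Without replicate 1 of the triple mutant, 23 were called in the triple mutant and 17 in pat1-1. All genes called over the fits that each left out 1 library ranged from 7931 to 9587 and from 2700 to 5057 there. The median log2 fold change over the 44 genes lay between 0.03 in path1-4 and 0.13 in pat1-1path2-1, against -0.01 to 0.01 over all genes.

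Among 12 regulators tested, 4 were higher and 3 lower in the triple mutant, 58.3% called beside 45.4% of all genes. PHR1 itself had 53.0, 54.7 and 54.9 CPM in the triple mutant, against 43.3, 40.9 and 43.6 CPM in the control (0.35, edgeR adjusted p = 9.22e-06). It was also higher in the 3 double mutants and in pat1-1, by 0.27 to 0.29 on the log2 scale, with libraries that stood above those of the control. ITPK1, an inositol phosphate kinase of phosphate signalling, was higher in the triple mutant (0.55, edgeR adjusted p = 1.72e-06), as was SPX4, a further SPX protein (0.42, 0.00112). ITPK1 was also called higher in pat1-1path1-4 (mean 23.7 CPM) and pat1-1 (24.2 CPM), against 19.8 CPM in the control. SPX4 was lower in pat1-1path2-1 (-0.26, edgeR adjusted p = 0.0447) and path1-4path2-1 (-0.29, 0.0417). HRS1, a transcription factor known to restrain root growth at low phosphate, was higher in the triple mutant (2.23), pat1-1path1-4 (1.88), pat1-1path2-1 (1.93) and pat1-1 (2.16), at edgeR adjusted p of 0.00398 to 0.0253. The last 3 calls were lost in 4, 3 and 3 of 24 fits that each left out 1 library, with adjusted p up to 0.115, and the pat1-1path1-4 libraries overlapped the control. Its level was low, 0.584 ± 0.326 CPM in the triple mutant against 0.121 ± 0.0447 CPM in the control (SD, n = 3 each). WRKY42, a transcription factor that acts on PHO1 and PHT1;1, was lower in the triple mutant (-1.12, edgeR adjusted p = 0.000457), pat1-1path1-4 (-1.35, 0.00027) and pat1-1path2-1 (-1.32, 0.000289).

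Among 9 transport genes tested, 3 were higher and 2 lower in the triple mutant, 55.6% beside 45.4% of all genes. The plastid phosphate carrier PHT2;1 averaged 348 ± 23.7 CPM in the triple mutant and 242 ± 24.4 CPM in the control (0.53, edgeR adjusted p = 0.000417; SD, n = 3 each). It was also called higher in pat1-1path2-1 (mean 338 CPM) and path1-4path2-1 (312 CPM). The mitochondrial carrier PHT3;1 averaged 104 ± 3.11 CPM in the triple mutant and 140 ± 6.16 CPM in the control (-0.44, edgeR adjusted p = 1.65e-05). PHT3;1 was also called lower in pat1-1path1-4 (mean 115 CPM) and pat1-1 (118 CPM). In the triple mutant G3PP4 was lower (-0.46, edgeR adjusted p = 0.0139) and G3PP1 higher (0.43, 0.0295), both of the glycerol-3-phosphate permease family. G3PP4 was also called lower in pat1-1path1-4 and pat1-1. G3PP1 was at 55.5, 36.1 and 35.0 CPM in the triple mutant, and without replicate 1 its change was 0.19 (edgeR adjusted p = 0.305). PHF1, which helps PHT1 transporters leave the endoplasmic reticulum, was higher in pat1-1path2-1 (0.53, edgeR adjusted p = 0.00109), and by 0.31 to 0.37 in the triple mutant, path1-4path2-1 and pat1-1 (0.0295, 0.0216 and 0.0231). These last 3 calls were lost with the compared genotypes fitted alone (edgeR adjusted p = 0.149, 0.103 and 0.112) and each in 4 of 24 fits that left out 1 library. Without replicate 2 of the control, PHF1 in the triple mutant was at 0.18 (edgeR adjusted p = 0.219).

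Among 13 genes of lipid remodelling tested, 5 were higher and 2 lower in the triple mutant, 53.8% beside 45.4%. The higher ones included 4 glycerophosphodiester phosphodiesterases, which act late in the breakdown of phospholipids. GDPD3 was at 1.12, 1.05 and 0.807 CPM in the triple mutant, against 0, 0.0777 and 0.117 CPM in the control (3.81, edgeR adjusted p = 1.39e-05). It was also called higher in pat1-1path1-4, at a mean of 0.277 CPM. GDPD1 averaged 56.0 ± 22.4 CPM in the triple mutant and 23.1 ± 2.73 CPM in the control (1.28, edgeR adjusted p = 3.49e-05; SD, n = 3 each). Its triple mutant libraries were at 81.8, 42.6 and 43.5 CPM, all above those of the control, and without replicate 1 the change was 0.90 (edgeR adjusted p = 0.000155). GDPD2 (1.60, edgeR adjusted p = 0.00352) and GDPD5 (0.65, 0.000574) were higher as well. GDPD1 was higher in all genotypes with pat1-1, by 0.91 to 1.28, and lower in path1-4path2-1 (-0.74, edgeR adjusted p = 0.0168). SQD1, which makes the sulfur-bearing precursor that SQD2 uses, had 78.1, 77.8 and 72.3 CPM in pat1-1path2-1, against 51.2, 57.9 and 52.4 CPM in the control (0.50, edgeR adjusted p = 4.69e-05). Its interaction of pat1-1 with path2-1 was 0.49 ± 0.11 (edgeR adjusted p = 0.00476). In that test 4 of the 44 other phosphate genes were called, 9.09% beside 14.7% of all genes. SQD1 is named here for its likeness to AT4 over the same genotype means, given below. Its interaction is therefore no independent support for that of AT4.

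Among 10 genes of phosphate release tested, 3 were higher and 2 lower in the triple mutant, 50% beside 45.4%, near the share of all genes. The secreted acid phosphatase PAP10 was at 31.2, 34.2 and 31.9 CPM in the triple mutant, against 19.3, 22.5 and 20.9 CPM in the control (0.63, edgeR adjusted p = 1.5e-05). It was higher in 5 of the 7 mutants, the singles path1-4 and path2-1 excepted. PAP15, a phytase, was higher in the triple mutant (0.64, edgeR adjusted p = 0.00723), and PAP26, a major acid phosphatase of the vacuole, was lower there by a small step (-0.18, 0.0166). PAP26 was also called lower in pat1-1path2-1 (mean 142 CPM, against 162 CPM in the control). The ribonuclease RNS1, which starved plants secrete to recover phosphate from RNA, was at 0.299, 0.0677 and 0.0351 CPM in the triple mutant, against 1.84, 2.60 and 3.98 CPM in the control (-4.39, edgeR adjusted p = 0.000427). It was called in no other mutant against the control.

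**Figure D5:**
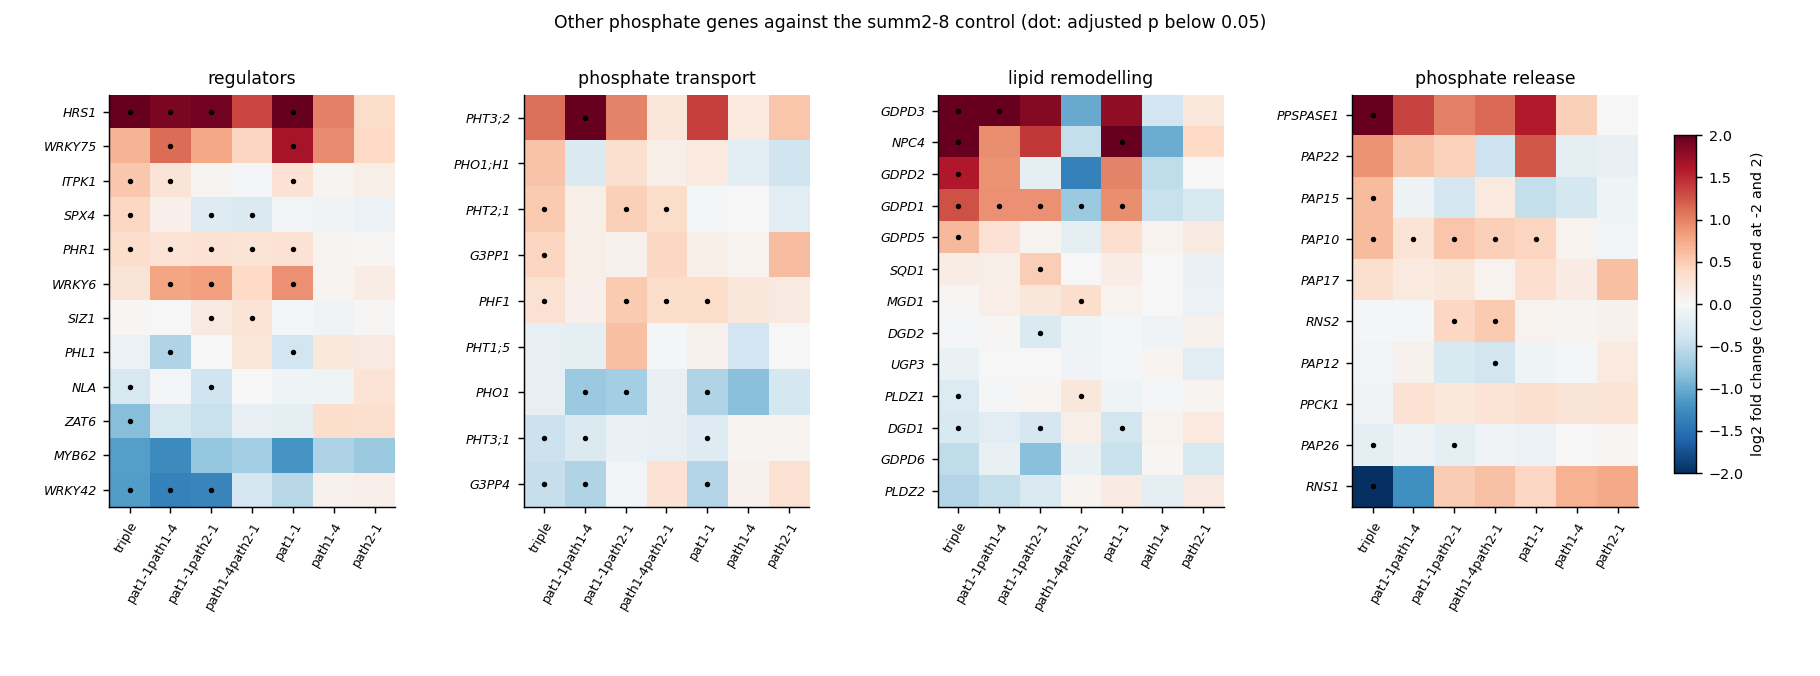
Log2 fold change against the control (colour, ending at -2 and 2) of the 44 other phosphate genes tested in the 7 mutants, in 4 roles, with a dot where edgeR's adjusted p is below 0.05. PHR1 and PAP10 carry dots in the first 5 columns, GDPD1 carries dots there with opposite colours, and the path1-4 and path2-1 columns carry none.

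The genes outside the members whose genotype means of log2 CPM were most like a member's over the 8 genotypes were found by Pearson r, as a description. Those of AT4 were AT1G22230 (0.977), SQD1 (0.970) and AT1G36390 (0.969). SQD1 had its highest geometric mean, 76.1 CPM, in pat1-1path2-1 and its lowest, 49.1 CPM, in path2-1, as AT4 did. Those of PHO2 were AT3G21100 (0.981), AT2G25010 (0.973) and AT1G19660 (0.972). Those of SPX1 were AT3G11402 (0.976), RALFL24 (0.972) and AT2G31730 (0.965). Those of MGD3 were ZYP1a (0.997), RAB7A (0.989) and XTH8 (0.989). MGD3, with 487 counts over all libraries, and ZYP1a, at geometric means of 0.422 to 0.728 CPM, were both low. Each set is the top 3 of 20346 genes tested over 8 genotypes, so high r values were picked out by the search itself.

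Other markers moved with the genotypes. Of the 16 root markers, PYK10, NAI2 and SCR had 24426, 12466 and 29286 counts over all libraries, and no other had more than 277. The root sum thus reflects mostly these genes and not the list as a whole. The summed CPM of the 16 root markers was 155 to 192 in the triple mutant, 104 to 156 in pat1-1path1-4, 113 to 119 in pat1-1path2-1, 77.5 to 87.7 in path1-4path2-1, 104 to 135 in pat1-1, 69.2 to 80.5 in path1-4 and 58.0 to 95.3 in path2-1, against 67.5 to 107 in the control. That of the 6 senescence markers was 960 to 962 in the triple mutant, 860 to 913 in pat1-1path1-4, 820 to 1040 in pat1-1, 406 to 527 in pat1-1path2-1, 345 to 415 in path1-4path2-1, 537 to 591 in path1-4 and 501 to 712 in path2-1, against 621 to 753 in the control. SEN1 carried most of that sum, with 851 to 857 CPM in the triple mutant, 697 to 736 in pat1-1path1-4, 579 to 867 in pat1-1 and 303 to 407 in pat1-1path2-1, against 497 to 596 in the control. The other 5 senescence markers summed to 105 to 112 CPM in the triple mutant, 145 to 177 in pat1-1path1-4, 176 to 242 in pat1-1 and 103 to 120 in pat1-1path2-1, against 123 to 187 in the control. SEN1 lay above the control in most libraries of the 3 genotypes in which SQD2 fell, while the other senescence markers did not share a direction there.

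The leaf markers summed to 45800 to 51800 CPM in the triple mutant, 45400 to 48500 in pat1-1path1-4, 45500 to 53800 in pat1-1path2-1 and 43800 to 46300 in pat1-1, against 36700 to 44700 in the control. Those of path1-4path2-1 (40800 to 45900), path1-4 (37700 to 47000) and path2-1 (30800 to 37700) overlapped the control, as did those of pat1-1. The 5 floral organ markers summed to 3.52 to 4.40 CPM in pat1-1, 2.37 to 3.98 in pat1-1path1-4, 0.846 to 1.31 in the triple mutant and 0.971 to 1.30 in pat1-1path2-1, against 1.44 to 1.63 in the control. In pat1-1 and pat1-1path1-4, where SQD2 fell, the floral sum was thus above the control, and in the triple mutant, where SQD2 fell too, it was below. AG carried most of the floral sum, with 809 counts over all libraries against 154 for PI, the next highest. The part of any of these 4 marker lists in the members' differences was not tested.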

How the data were processed

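The 3 biological replicates of 8 genotypes were analysed from 2 deposited tables of the authors, raw read counts per gene and TPM. Reads were aligned with STAR 2.5.1b to TAIR10, per the submitters' processing notes; the sources used here do not name the counting tool, its annotation or its strand option. The deposited counts and TPM values were in constant proportion per gene, within 0.1%, for 26755 of 26755 genes compared.

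Counts were tested with edgeR 4.0.16 (R 4.3.3; filterByExpr, TMM, quasi-likelihood F test) in 1 fit of all 24 libraries with 14 contrasts, adjusted by Benjamini-Hochberg over 20346 genes. The common dispersion was 0.0119. Scripts were tested on simulated data. Log2 CPM used a prior count of 2. Alternatives were DESeq2 1.42.0, RLE factors, no filter, the compared genotypes alone, length and GC trends removed, and each library left out.

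The members and lists were chosen with earlier results of these data known. Named genes are the members, up to 4 other phosphate genes per role by adjusted p in the triple mutant, those called in 4 or more of 7 comparisons with the control, and the 3 genes most like each of 4 members. Precursors of microRNAs and 10 list names that the tables did not match are not analysed here.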

Additional observations from a re-analysis of the deposited data

Results flagged for a closer look

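Among plants with intact PATH1, the effect of path2-1 on AT4 differed between pat1-1 plants and the control (interaction 2.86 on the log2 scale, edgeR adjusted p = 0.00139). AT4 was at 8.39, 10.5 and 9.83 CPM in pat1-1path2-1 against 3.98, 2.40 and 3.38 CPM in pat1-1. It was at 0.628, 1.02 and 1.36 CPM in path2-1 against 2.59, 2.99 and 1.80 CPM in the control. The interaction passed in all 24 fits that each left out 1 library, between 2.63 and 3.11.

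In the same test SQD1 was at 0.49 (edgeR adjusted p = 0.00476) and passed in all 24 such fits. The test did not single out SQD1. Of the 44 other phosphate genes it called 4, ITPK1, NLA, PHT2;1 and SQD1, with 2 positive and 2 negative. That was 9.09%, beside 14.7% of all genes.

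For SQD2 the interaction was 0.45 (edgeR adjusted p = 0.0318). It ranged from 0.40 to 0.51 with 1 library left out, and the adjusted p from 0.00202 to 0.0797.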

How the results depend on the processing

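No paired analysis was possible because the labels number the libraries across all genotypes and tie no replicate of 1 genotype to a replicate of another. With the compared genotypes fitted alone, members called became 2 in the triple mutant, 4 in pat1-1path2-1, 1 in path1-4path2-1, 3 in pat1-1 and 3 in the triple mutant against path1-4path2-1. All genes called became 3089 in pat1-1, 7 in path1-4, 1 in path2-1, 568 for the interaction of path1-4 with path2-1 and 668 for the triple mutant against the sum of singles. With DESeq2, all genes called became 101 in path1-4, 125 in path2-1 and 24 for the interaction of pat1-1 with path1-4; other phosphate genes called became 1 in path1-4 and 1 in path2-1, and members called 1 for the interaction of path1-4 with path2-1. With length and GC trends removed, members called became 1 in path1-4path2-1 and 0 in the triple mutant against pat1-1path1-4. With no filter, they became 2 in that last comparison, and other phosphate genes called 1 in path1-4. The narrower motif left 2 members with a match. The causes were not tested.

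With 1 library left out at a time, members called ranged from 2 to 4 in the triple mutant, 0 to 1 in path1-4path2-1, 1 to 2 in pat1-1, 2 to 3 in pat1-1path2-1, and 0 to 1, 3 to 6 and 2 to 5 in the triple mutant against pat1-1path1-4, pat1-1path2-1 and path1-4path2-1, and 1 to 2 for the interaction of pat1-1 with path2-1. Other phosphate genes called ranged from 9 to 15 in pat1-1path1-4, 5 to 13 in path1-4path2-1, 9 to 17 in pat1-1 and 0 to 2 in path1-4. All genes called ranged from 4408 to 6758 in pat1-1path1-4, 5011 to 7055 in pat1-1path2-1, 2448 to 4265 in path1-4path2-1, 2700 to 5057 in pat1-1, 16 to 113 in path1-4, 2 to 42 in path2-1, 2454 to 3758 in the triple mutant against pat1-1path1-4, 4 to 15, 1765 to 3438 and 854 to 2342 for the interactions of pat1-1 with path1-4, pat1-1 with path2-1 and path1-4 with path2-1, and 546 to 1691 against the sum of singles. Without triple mutant replicate 1, the sign turned for 12 member values of the triple mutant: PHT1;4 against the control (range -0.113 to 1.211), pat1-1path1-4 (-0.152 to 1.171) and pat1-1path2-1 (-0.566 without it), SPX1 against pat1-1path1-4 (-0.227 without it), pat1-1path2-1 (range -0.572 to 0.370), path1-4path2-1 (-0.012 to 0.929) and the sum of singles (-0.220 without it), AT4 against the control (-0.133) and pat1-1path1-4 (-0.298), SPX2 against the control (-0.053), MGD3 against pat1-1path1-4 (-1.369) and SQD2 against the sum of singles (-0.134). Without triple mutant replicate 2, SQD2 turned against pat1-1path1-4 (-0.299 to 0.013). Calls lost in 1 to 4 of 24 such fits were SPX1, G3PP1, G3PP4, PAP26 and PHF1 in the triple mutant, and PAP10 and HRS1 in pat1-1path1-4. So were HRS1 in pat1-1path2-1, GDPD1 and PHF1 in path1-4path2-1, and HRS1 and PHF1 in pat1-1. Against path1-4path2-1, the calls of MGD3, PHT1;4 and PHO2 in the triple mutant were lost as often. SQD2 and MGD3 in the triple mutant and pat1-1path1-4, SQD2 in pat1-1 and AT4 and PHO2 in pat1-1path2-1 passed in all 24 such fits and all 5 other alternatives. Counts of IPS1, SPX3 and MGD3 limit what can be read from them.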
